A study of Mus musculus with 6 samples.

Results

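Genes of voltage-gated and potassium channels were followed through the embryonic mouse retina in cells lacking Atoh7, Bax or both. The set was defined by symbol: every gene beginning with Kcn, Cacn or Scn followed by a digit, which gave 139 of the 27998 genes in the deposited table. It held 134 protein-coding genes and 5 antisense RNAs that share the symbols (Kcnq1ot1, Kcnd3os, Kcnmb4os1, Kcnmb4os2 and Kcnab3os). At least 1 UMI (unique molecular identifier, a tag that counts each captured RNA once) was found for 129 of them, and 10 were at 0: Kcna10, Kcne3, Kcng3, Kcnj1, Kcnj15, Kcnj16, Kcnk9, Kcnk16, Kcnk18 and Kcnmb4os1.

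Retinas were taken at embryonic day 14 and profiled by droplet single-cell RNA-seq that reads the 3′ ends of transcripts. There were 6 libraries, 2 for each of 3 genotypes. Bax het Atoh7 null retinas, labelled Atoh7 mutant, have 1 working copy of Bax and none of Atoh7. Bax null retinas, labelled Bax mutant, keep Atoh7, and Bax null Atoh7 null retinas are labelled the double mutant. A group with both genes intact was not analysed here, and every group carried at least 1 mutant copy of Bax. The labels name no strain, no separate animals and no pooling for the libraries of a group. The p-values below therefore measure only the spread between these libraries, which may be technical. Double mutant and Bax null differ in Atoh7, double mutant and Atoh7 mutant differ in Bax, and Atoh7 mutant and Bax null differ in both genes.

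Voltage-gated sodium channels carry the rising phase of the action potential, and their alpha subunits form the pore while beta subunits tune gating and surface level. Voltage-gated calcium channels are built from a pore-forming alpha1 subunit with alpha2delta and beta partners, whereas several genes named Cacng encode TARPs, auxiliary proteins that traffic AMPA-type glutamate receptors. Potassium channels set the resting potential and end the action potential. They fall into voltage-gated (Kv), inward-rectifying, calcium- or sodium-activated and two-pore leak families, with partners that change their gating. Retinal ganglion cells are the output neurons of the retina and the spiking cells that send axons to the brain. Atoh7 is a proneural transcription factor of the basic helix-loop-helix family needed for most ganglion cells, and Bax carries out cell death by permeabilizing mitochondria.

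The libraries held 67050 cells and between 22463515 and 66594431 UMIs, and the channel genes took between 0.0576% and 0.0856% of these. Atoh7 was at 0 in the 4 libraries labelled Atoh7 null and at 5.96 and 6.88 CPM (counts per 1000000 UMIs) in Bax null. Bax stood at 144 and 108 CPM in the Atoh7 mutant, at 17.1 and 15.0 in Bax null, and at 47.7 and 11.0 in the libraries labelled double mutant, so that the first of these went partly against its label. Mitochondrial genes took 3.8% and 3.9% of the UMIs of the Bax null libraries and 1.06% to 1.15% elsewhere, and the level of mt-Atp6 was 8740 and 9020 CPM there against 3.74 to 4.55 in the other libraries. Both Bax null libraries lay on 1 side of this split, so in the comparisons with Bax null the genotype cannot be told apart from a batch. The 2 double mutant libraries shared 2596 cell barcodes (17.6% and 22.0% of their cells, 89.4% with the same cell type in both), against 126 to 223 for the other pairs of libraries. The calls lost without these cells are counted or named in each class.

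The authors assigned each cell to 1 of 5 types: retinal progenitor cells, neurogenic cells, ganglion cells, cones and cells labelled horizontal. UMIs were summed per library within a type, and a level is given as CPM of that sum scaled by TMM, the trimmed mean of M values. Levels were compared within a gene and not between genes, because end counts do not measure all transcripts equally well. The marker genes of each type were found in it. In the cells labelled horizontal, markers of horizontal cells (2044 to 2451 CPM as group means of the summed list) stood beside those of amacrine cells (576 to 818 CPM), so that label is kept as a label and was left out of the tests between genotypes. The types were made from the expression of the same cells, and 20 channel genes (14.4%, against 9.4% of all genes) were used by the authors to order them, so differences between types are descriptions without a test.

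Channel genes were already present in progenitors, where 16 reached a mean of 5 CPM, and many were higher in the neurons. In ganglion cells 34 of them had a mean of at least 5 CPM, and 21 of these (61.8%) were at least 2-fold above progenitors in all 6 libraries, against 11.7% of all genes at that level. In cones the count was 17 of 28 (60.7%, against 10.4%), and in the cells labelled horizontal it was 17 of 29 (58.6%, against 9.92%). In neurogenic cells, the newly committed precursors, only Cacna2d3 and Kcnj9 passed, 2 of 18 (11.1%, against 3.11%). In the opposite direction, Kcnk1 was the 1 of 16 members at least 2-fold lower in ganglion cells than in progenitors (6.25%, against 10.2%), and Kcnk1, Cacng4 and Cacna1d were the 3 of 16 in cones (18.8%, against 7.65%). The summed level of all channel genes without Kcnq1ot1 lay between 396.4 and 514.0 CPM in progenitors, between 738.6 and 911.4 CPM in ganglion cells and between 663.7 and 830.4 CPM in cones.

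**Figure D1:**
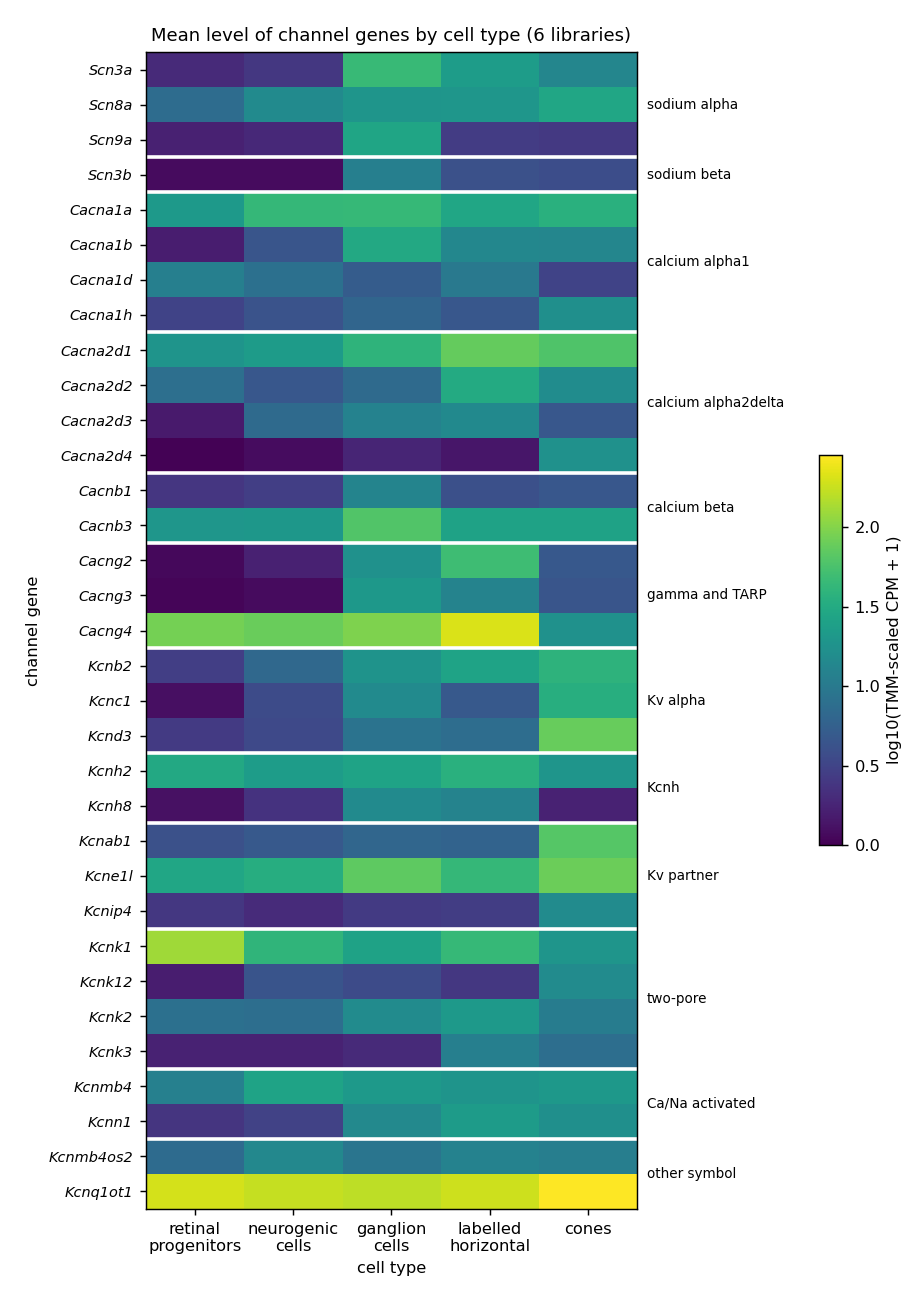
Colour gives the mean TMM-scaled CPM over 6 libraries, as log10 of the level plus 1, for 33 channel genes that reached 10 CPM in any of the 5 cell types (columns), grouped by family (rows). Scn9a, Scn3b and Cacna1b were brightest in ganglion cells, Kcnd3, Kcnab1 and Cacna2d4 in cones, Cacng4 and Cacng2 in the cells labelled horizontal, and Kcnk1 in progenitors.

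The neuronal types differed in part in the channel genes furthest above progenitors. Scn3a and Cacna1b were at least 2-fold above progenitors in cones and in the cells labelled horizontal as well, Kcnc1 and Cacng2 in ganglion cells as well, and Cacna2d1 in all of these types. In ganglion cells the sodium channel genes Scn3a (44.5 ± 21.7 CPM, SD, n = 6) and Scn9a (27.0 ± 15.3 CPM) were 45.6-fold and 40.5-fold above progenitors. Scn3b, a beta subunit, was 57.4-fold above (10.5 ± 9.77 CPM), and Cacna1b, the N-type presynaptic calcium channel, 50.1-fold (29.5 ± 10.9 CPM). All 4 were highest in the Bax null libraries, which widens their SDs. Cones had high Kcnd3, an A-type Kv channel, at 76.2 ± 22.9 CPM (47.7-fold above progenitors), and Kcnab1, a Kv beta subunit, at 62.9 ± 26.4 CPM (20.4-fold). Kcnc1, a fast Kv3 channel, was at 33.5 ± 7.13 CPM in cones (132-fold), and Cacna2d4, an alpha2delta subunit needed for photoreceptor synapses, at 16.4 ± 2.16 CPM (431-fold).

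Kcnd3os, the RNA antisense to Kcnd3, was also in cones (6.82 ± 1.98 CPM, 34.1-fold above progenitors); whether the counting used strand is not given in the sources used here, so its reads and those of Kcnd3 may not be separable. The cells labelled horizontal had Cacng4 (204 ± 14.2 CPM, 2.37-fold), Cacng2 (48.2 ± 12.6 CPM, 355-fold), both TARPs, and Cacna2d1, the widely used alpha2delta subunit (74.2 ± 25.4 CPM, 4.25-fold). In progenitors Kcnk1, a two-pore leak channel, stood at 126 ± 41.9 CPM. Its level was 0.201 times as high in ganglion cells and 0.143 times as high in cones. Kcnq1ot1, a long noncoding RNA of an imprinted locus and no channel, lay between 163 and 284 CPM in the mean of every type.

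In ganglion cells channel genes differed in both directions in the comparisons with Bax null. Of 42 channel genes that passed the filter on low counts, 12 were higher (28.6%, against 26.2% of all genes tested) and 15 lower (35.7%, against 26.5%) in the double mutant than in Bax null at an adjusted p under 0.05 in edgeR's quasi-likelihood test. Their median log2 fold change was -0.04, against 0.02 for all genes. The same comparison with the Atoh7 mutant in place of the double mutant gave 7 higher (16.7%, against 25% of all genes) and 14 lower (33.3%, against 25%). The share called lower was above that of all genes in both comparisons, and the share called higher was near it in the first and below it in the second. These comparisons share the Bax null libraries. Where a pair of log2 fold changes follows a gene below, the first is that of the Atoh7 mutant and the second that of the double mutant, each against Bax null, unless said otherwise. Without TMM, on library totals alone, which moves the median of all genes by 0.63 and 0.50 on the log2 scale, the splits were 21 higher and 6 lower, and 17 higher and 7 lower. Leaving out the shared barcodes kept 23 of the 27 calls and 21 of the 21. Kcnmb2, Kcnmb4os2, Kcnh8 and Cacna1d were the 4 that lost theirs.

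The mix of cells within the class moved with the groups. The summed level of 10 ganglion cell markers was 8152, 16260 and 8548 CPM (means in the Atoh7 mutant, Bax null and the double mutant), with library ranges of 7604 to 8701, 15750 to 16769 and 7969 to 9128. In the same order, 5 horizontal cell markers summed to 1210, 682 and 1247 CPM, 7 neurogenic markers to 1837, 1330 and 1778 CPM, 7 progenitor markers to 1015, 697 and 1103 CPM, and 8 stress genes to 416, 190 and 600 CPM. Blood genes summed to 48.2, 592 and 87.1 CPM. None of these lists had a gene at 0 in the class. Their part in the changes of single channel genes was not tested, and in a class sum a change in the mix of cells and a change within cells cannot be told apart.

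Several sodium channel genes were lower in both Atoh7 null groups. Of 4 alpha subunits tested, 2 were lower in the double mutant and 3 in the Atoh7 mutant, and the 1 beta subunit tested was lower in both, where 26.5% and 25% of all genes were called lower. With so few genes these counts describe the genes and not the family. Scn3a (GRCm38 chromosome 2, 65457118 to 65567627), the embryonic brain sodium channel, stood at 66.9 and 77.1 CPM in Bax null, at 34.5 and 29.6 CPM in the Atoh7 mutant and at 27.6 and 31.1 CPM in the double mutant. Both Bax null libraries lay above the other 4, which overlapped each other. The log2 fold change was -1.30 (SE 0.13, adjusted p 5.07e-06) in the double mutant and -1.18 (SE 0.13, adjusted p 1.41e-05) in the Atoh7 mutant, each against Bax null.

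Scn9a (chromosome 2, 66480080 to 66634962), a peripheral-type alpha subunit that amplifies small depolarizations, was measured at 45.0 and 47.8 CPM in Bax null, 14.4 and 14.5 CPM in the Atoh7 mutant and 20.4 and 19.7 CPM in the double mutant. The 3 groups did not overlap, with Bax null highest. It was lower than in Bax null by -1.21 (SE 0.13, adjusted p 8.05e-06) and -1.68 (SE 0.14, adjusted p 1.39e-06) on the log2 scale in the double mutant and the Atoh7 mutant. Scn3b (chromosome 9, 40269217 to 40291618) had the largest gap of the sodium channel genes tested. It fell from 21.1 and 24.8 CPM in Bax null to 5.18 and 6.22 CPM in the double mutant and to 2.88 and 2.96 CPM in the Atoh7 mutant, with log2 fold changes of -2.01 (SE 0.22, adjusted p 9.08e-06) and -2.96 (SE 0.27, adjusted p 2.2e-06). Scn2a1, the main sodium channel of young axons, was called only in the Atoh7 mutant (log2 -1.06, adjusted p 0.0024; 5.75 and 6.58 against 13.2 and 12.8 CPM in Bax null), while the double mutant stood at 9.66 and 11.7 CPM; without TMM the call in the Atoh7 mutant was lost (adjusted p 0.0598) and the difference in the double mutant turned sign (0.32). Scn3a, Scn9a and Scn3b kept their calls in both comparisons without TMM, with log2 fold changes of -0.69, -1.2 and -2.47 in the Atoh7 mutant and -0.69, -0.60 and -1.40 in the double mutant. Scn8a, the mature nodal channel, was at 15.5 to 22.5 CPM in all 6 libraries and was not called in any comparison.

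Scn9a, a sodium channel gene that was lower in both Atoh7 null groups, had an entry in the RefSeq promoter table. Its 250 bases upstream of the start are shown because the comparison differs in Atoh7, a factor of a family that binds E-boxes (CANNTG). They are from RefSeq, build GRCm38.p6, 5′ to 3′ on the gene's strand, at chr2:66634963-66635212 (minus strand). Capitals mark the CANNTG match.
Scn9a: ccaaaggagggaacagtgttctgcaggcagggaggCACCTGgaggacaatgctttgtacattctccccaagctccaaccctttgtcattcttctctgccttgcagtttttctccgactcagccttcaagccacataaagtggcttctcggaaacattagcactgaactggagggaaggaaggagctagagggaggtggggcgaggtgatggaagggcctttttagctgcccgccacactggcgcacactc
The window had 1 match, CACCTG starting 215 bases before the start. CANNTG reads the same on both strands and includes CAGCTG. It was in 66.2% of all 32851 promoters of this length and in 66.2% of the 136 promoters found for 101 channel symbols. CAGCTG was in 13% of all promoters and 24.3% of those of channel genes, TGANTCA, the letters of AP-1 sites, in 6.75% and 3.68%, and TGACGTCA, those of ATF and CREB sites, in 1.55% and none of the 136; both read the same on both strands. A match describes letters in the window and not a bound site.

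**Figure D2:**
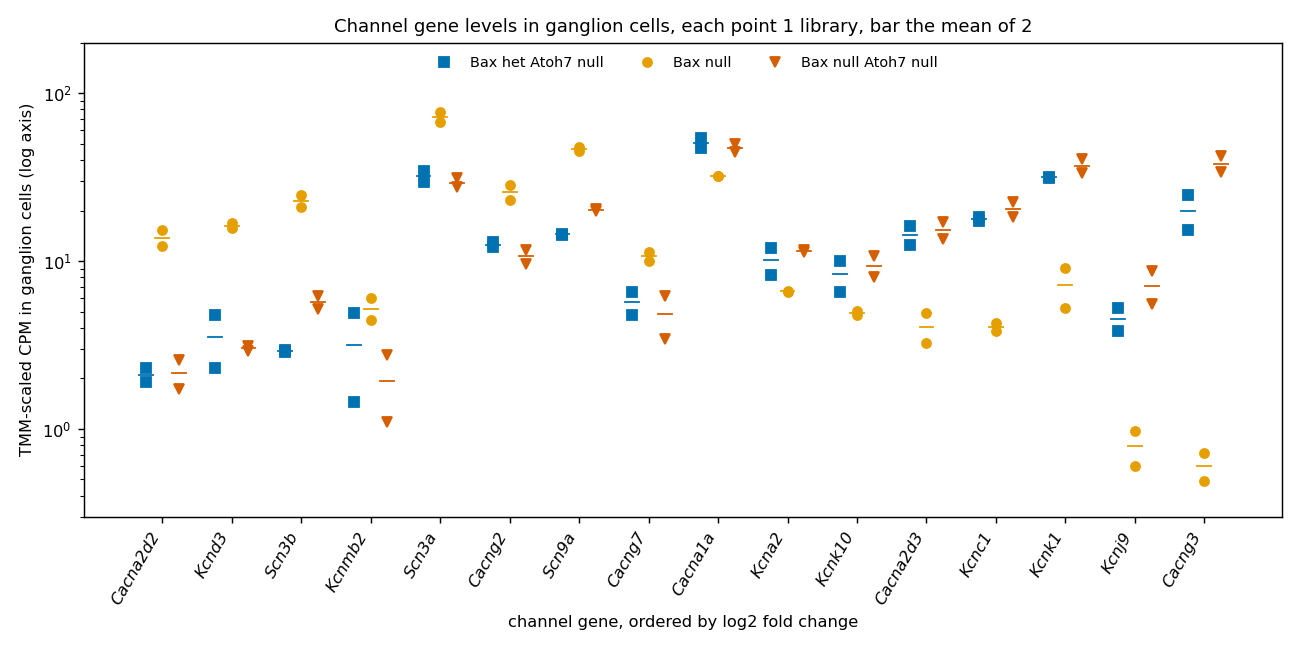
Each point is the TMM-scaled CPM of 1 library in ganglion cells (log axis) for the 16 channel genes named from the comparison of the double mutant with Bax null, and each bar is the mean of 2 libraries. The Bax null points lie highest for the sodium channel genes Scn3a, Scn9a and Scn3b and lowest for Cacng3, Kcnj9, Kcnk1 and Kcnc1.

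Calcium channel genes moved in both directions within their families. Among 4 alpha1 genes tested, Cacna1a, the P/Q-type presynaptic channel, was higher in both Atoh7 null groups. It was measured at 32.2 and 32.3 CPM in Bax null, 54.2 and 47.3 CPM in the Atoh7 mutant and 49.7 and 44.6 CPM in the double mutant, with log2 fold changes of 0.64 (SE 0.12, adjusted p 0.00079) and 0.55 (SE 0.12, adjusted p 0.00194). Cacna1b was lower, with 43.1 and 42.8 CPM in Bax null against 25.4 and 17.4 CPM in the Atoh7 mutant and 21.4 and 26.7 CPM in the double mutant (log2 -1.05 and -0.84, the second not called without TMM, adjusted p 0.226). The P/Q-type and N-type genes, which share the task of releasing transmitter, thus differed in opposite directions from Bax null. Cacna1d, an L-type channel, was higher (2.33 and 2.40 CPM in Bax null against 4.79 and 5.92, and 4.83 and 4.75, log2 1.2 and 1.01). Without the shared barcodes its adjusted p in the double mutant was 0.0719. With 19 and 20 UMIs in Bax null, Cacna1d passed the filter on low counts only through the Atoh7 null groups.

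The alpha2delta genes split in the same manner. Cacna2d2 fell from 15.4 and 12.2 CPM in Bax null to 1.92 and 2.30 CPM in the Atoh7 mutant and 1.73 and 2.56 CPM in the double mutant (log2 -2.67 and -2.68, SE 0.34 and 0.33, adjusted p 3.78e-05 and 2.24e-05). Cacna2d3 was at 4.90 and 3.23 CPM in Bax null, 12.5 and 16.1 CPM in the Atoh7 mutant and 13.5 and 17.2 CPM in the double mutant (log2 1.84 and 1.91, SE 0.27 and 0.26, adjusted p 0.000139 and 6.43e-05). Cacna2d1 lay between 36.5 and 40.6 CPM in all 6 libraries and was not called. The 2 alpha2delta genes that moved had no overlap between Bax null and the other libraries. Cacna2d2 rested on 4 and 7 UMIs in the Atoh7 mutant and on 5 and 7 in the double mutant. It passed the filter on low counts through Bax null alone. Cacna2d3, on 40 and 27 UMIs in Bax null, needed the Atoh7 null groups, where it was high, to pass that filter. The beta subunit gene Cacnb3 was called lower (log2 -0.34 and -0.50), but its direction turned without TMM (0.15 and 0.11).

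Among the genes named Cacng, Cacng3 stood apart. It encodes a TARP (chromosome 7, 122670492 to 122769393). It stood at 0.490 and 0.719 CPM in Bax null, resting on 4 and 6 UMIs, at 15.3 and 24.7 CPM in the Atoh7 mutant (32 and 75 UMIs) and at 34.2 and 42.1 CPM in the double mutant (99 and 115 UMIs). The groups did not overlap, and the gene passed the filter on low counts only through the Atoh7 null groups, where it was high. The log2 fold change against Bax null was 5.04 (SE 0.37, adjusted p 3.96e-07) in the Atoh7 mutant and 5.91 (SE 0.31, adjusted p 1.6e-08) in the double mutant. The other TARP genes called were lower: Cacng2 (log2 -1.04 and -1.27; 23.0 and 28.4 CPM in Bax null against 12.9 and 12.2, and 9.66 and 11.7), Cacng7 (-0.87 and -1.16, neither called without TMM, adjusted p 0.271 and 0.122) and Cacng4 (-0.64 and -0.43, the latter turning to 0.18 without TMM). In each of these comparisons 1 of 5 genes of the family was called higher and 3 lower beside the shares of all genes given above, and Cacng2 and Cacng3 kept both calls without TMM.

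Voltage-gated potassium channel genes also moved in both directions. Of 6 Kv alpha genes tested in ganglion cells, Kcnc1 and Kcna2 were higher and Kcnd3 lower in the double mutant. Kcnc1 was measured at 4.28 and 3.83 CPM in Bax null, 17.3 and 18.4 CPM in the Atoh7 mutant and 22.4 and 18.3 CPM in the double mutant (log2 2.14 and 2.32, SE 0.22 and 0.21, adjusted p 7.92e-06 and 1.99e-06). Kcnd3 was at 15.7 and 16.8 CPM in Bax null, 4.79 and 2.30 CPM in the Atoh7 mutant and 3.11 and 2.93 CPM in the double mutant (log2 -2.28 and -2.42, SE 0.29 in both, adjusted p 4.02e-05 and 1.79e-05). The fast delayed rectifier and the A-type channel thus differed from Bax null in opposite directions, with no overlap of libraries. Each passed the filter on low counts only with the groups where it was high. For Kcnc1 these were the Atoh7 null groups (35 and 32 UMIs in Bax null). For Kcnd3 it was Bax null (10 and 7 UMIs in the Atoh7 mutant, 9 and 8 in the double mutant). Kcna2, an axonal Kv1 channel, was called only in the double mutant (log2 0.80, adjusted p 0.0107, 11.4 and 11.7 against 6.61 and 6.59 CPM). Without TMM it was called in the Atoh7 mutant as well (log2 1.055, adjusted p 0.00303). Kcnh8, of the ELK group, was lower (18.5 and 20.2 CPM in Bax null, 10.5 in both Atoh7 mutant libraries, 14.8 and 9.51 in the double mutant), and without the shared barcodes its adjusted p in the double mutant was 0.0724. Kcnh2, the ERG channel, was higher in the double mutant (log2 0.42, adjusted p 0.0322). None of the 10 Kv modifier genes reached the filter.

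The leak and inward rectifier genes that were called were higher in the Atoh7 null groups. Kcnk1 was measured at 9.06 and 5.27 CPM in Bax null, 31.2 and 31.9 CPM in the Atoh7 mutant and 40.4 and 33.6 CPM in the double mutant (log2 2.14 and 2.37, SE 0.22 and 0.21, adjusted p 7.51e-06 and 1.56e-06). Kcnk10, a mechano- and lipid-sensitive leak channel, was called only in the double mutant (log2 0.94, adjusted p 0.0116; 10.7 and 8.04 against 5.02 and 4.79 CPM). Kcnj9, a G protein-gated inward rectifier and the 1 of 15 inward rectifier genes tested, was at 0.979 and 0.599 CPM in Bax null (13 UMIs in the group), 3.83 and 5.26 CPM in the Atoh7 mutant and 5.52 and 8.78 CPM in the double mutant (log2 2.53 and 3.13, adjusted p 0.000897 and 5.33e-05). Both genes with the higher folds, Kcnk1 and Kcnj9, had no overlap with Bax null, and Kcnj9 passed the filter only through the Atoh7 null groups. Kcnk10, and Kcnn2 named below, also needed the Atoh7 null groups to pass it. Among calcium- or sodium-activated genes, Kcnmb4, a brain beta subunit of the BK channel, was lower (26.7 and 28 CPM in Bax null, 12.5 and 16.8, and 15.2 and 19.0 elsewhere; log2 -0.87 and -0.68). Kcnmb2, another BK beta subunit, was called only in the double mutant (log2 -1.40, adjusted p 0.0316, and 0.0635 without the shared barcodes), as was Kcnn2, a small-conductance channel, which was higher (log2 1.54, adjusted p 0.0185) at a mean under 5 CPM. Kcnq1ot1 was lower in both groups (log2 -0.76 and -0.67; 232 and 207 CPM in Bax null, 122 to 145 CPM elsewhere).

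**Figure D3:**
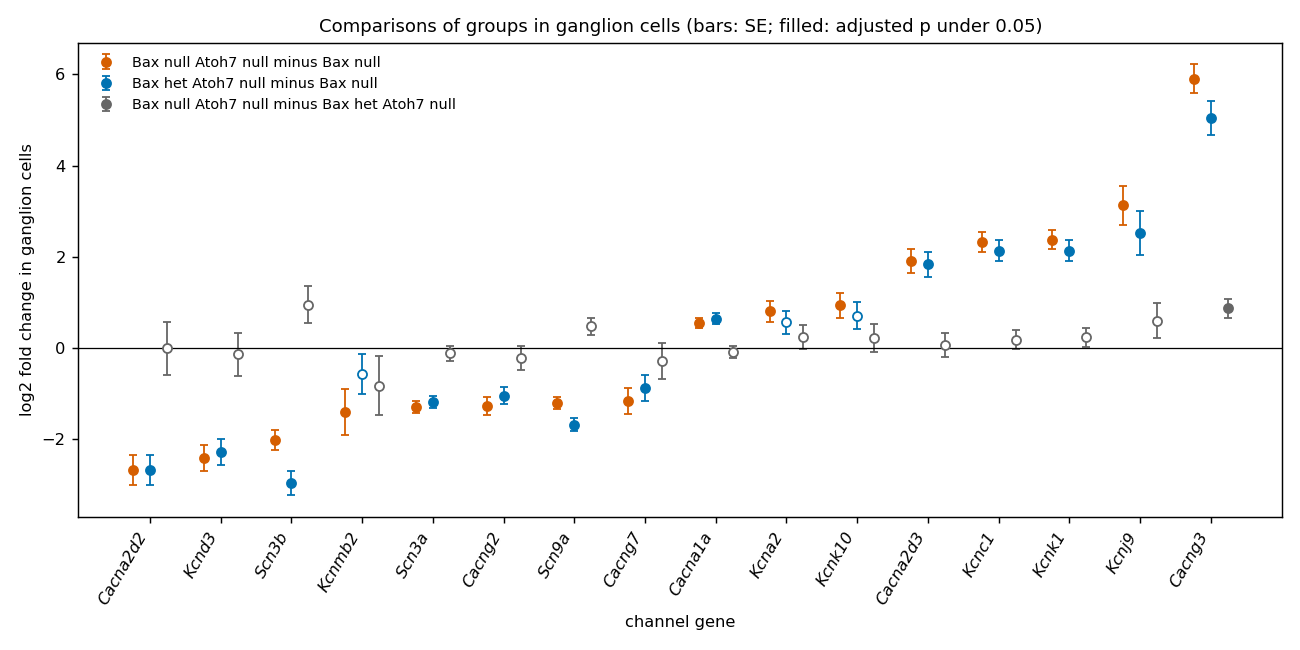
Points give the log2 fold change in ganglion cells with its SE for the same 16 genes in 3 comparisons, and filled points had an adjusted p under 0.05. Both comparisons with Bax null reach from -2.68 or below (Cacna2d2 and Scn3b) to above 5 (Cacng3), and in the comparison that differs in Bax only Cacng3 (0.87) is filled.

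Where the groups differed in Bax alone, 1 of 42 channel genes was called in ganglion cells. Cacng3 was higher in the double mutant than in the Atoh7 mutant (log2 difference 0.87, SE 0.21, adjusted p 0.0481, over alternatives 0.00541 to 0.224), with 34.2 and 42.1 against 15.3 and 24.7 CPM. It was the 1 member called higher (2.38%, against 0.246% of all genes), and 0 were lower (against 2.1%). Without the shared barcodes, and so with fewer cells, the log2 fold change was 0.99 and the adjusted p 0.0866. The call was also lost without replicate 1 of the Atoh7 mutant, replicate 2 of the double mutant or either Bax null library. Before adjustment, 5 channel genes had a p under 0.05. Both groups lay on the same side of the mitochondrial split. The cluster with most of the Cacng3 UMIs of these groups held 17.5% of the ganglion cells of the double mutant and 11.1% of those of the Atoh7 mutant. The part of this difference in the call was not tested. The replicate 1 library of the double mutant, whose Bax level went partly against its label, had the lower Cacng3 level of its pair.

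In neurogenic cells, 36 channel genes were tested. In the double mutant 11 were higher than in Bax null (30.6%, against 23.5% of all genes) and 5 lower (13.9%, against 23.8%). In the Atoh7 mutant 12 were higher (33.3%, against 23.4%) and 5 lower (13.9%, against 23.8%). Without TMM the splits were 23 and 0, and 20 and 2. Kcnj9 was at 1.25 and 1.11 CPM in Bax null, 4.88 and 10.7 CPM in the Atoh7 mutant and 6.14 and 8.86 CPM in the double mutant (log2 2.73 and 2.64, adjusted p 0.000289 and 0.000381). Here too Kcnj9 passed the filter on low counts only through the Atoh7 null groups. Cacna2d3 (2.72 and 1.75 CPM in Bax null; log2 1.93 and 1.75), Kcnb2, a delayed rectifier Kv2 channel (2.04 and 3.13 CPM in Bax null; log2 1.45 and 1.55), and Cacna1a (30.9 and 29.0 CPM in Bax null; log2 0.63 and 0.72) were also higher. Kcnmb4 was higher here (16.2 and 18.9 CPM in Bax null, 26.6 and 29.6, and 31.9 and 30.2 CPM elsewhere; log2 0.67 and 0.82), although it was lower in ganglion cells.

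Genes called lower in neurogenic cells were Cacna2d2 (log2 -1.67 and -1.0; 5.89 and 5.99 CPM in Bax null), Cacng7 (-0.77 and -0.86), Kcnh2 (-0.82 and -0.69), Kcnq1ot1 (-1.06 and -0.81) and Cacng4 (-0.34 and -0.40, turning to 0.17 and 0.19 without TMM). Kcns1, a silent Kv modifier, was at 0 UMIs in both Bax null libraries of this class. It was at 1.61 ± 0.133 and 1.43 ± 0.373 CPM (SD, n = 2) in the Atoh7 mutant and the double mutant. It passed the filter on low counts only through these groups, where it was high, and was chosen for naming after its values were seen. Progenitor markers in the class summed to 3237, 5205 and 3568 CPM and neurogenic markers to 5362, 4086 and 5469 CPM in the Atoh7 mutant, Bax null and the double mutant. In the same order ganglion cell markers there summed to 639, 404 and 686 CPM, horizontal cell markers to 294, 216 and 305 CPM and blood genes to 45.3, 536 and 90.8 CPM. The authors' clusters divided the class by group as well: 16 of 27 neurogenic clusters, each with a larger share of the class in both Atoh7 null groups, held 68.8%, 32.1% and 67.9% of its cells. The part of these differences in the changes of channel genes was not tested. Without the shared barcodes Kcnk1 (log2 0.26, adjusted p 0.2) and Cacna1b (adjusted p 0.0652) lost their calls in the double mutant and Cacna1b (adjusted p 0.0549) in the Atoh7 mutant, and Kcns1 no longer passed the filter. Where the groups differed in Bax, 0 members were higher (against 0.00857% of all genes) and 0 lower (against 1.76%), with 2 at an unadjusted p under 0.05 and 0 called by DESeq2.

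In retinal progenitor cells, the deepest class, 60 channel genes were tested. In the double mutant 13 were higher than in Bax null (21.7%, against 26.8% of all genes) and 7 lower (11.7%, against 27.1%), and in the Atoh7 mutant 11 were higher (18.3%, against 26.6%) and 9 lower (15.0%, against 26.5%). Without TMM the splits were 36 and 1, and 27 and 4, and leaving out either Bax null library lowered the first count of 20 to 13. Kcnk1 stood at 77.4 and 66.8 CPM in Bax null against 152 and 144 CPM in the Atoh7 mutant and 158 and 154 CPM in the double mutant (log2 1.04 and 1.12, SE 0.09 in both, adjusted p 2.82e-05 and 1.78e-05). Every library of the other groups had at least 144 CPM, and none overlapped Bax null. Kcna5, a Kv1 channel, was higher at a lower level (2.17 and 2.27 CPM in Bax null; log2 1.02 and 1.24), as was Kcne1l, a small accessory subunit, in the double mutant (log2 0.43; 22.4 and 24.7 against 32.5 and 30.8 CPM).

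Cacna2d2 (log2 -0.91 and -0.71; 9.41 and 10.0 CPM in Bax null), Cacng7 (-0.86 and -0.75; 13.3 and 12.6 CPM) and Kcnq1ot1 (-0.91 and -0.66) were lower in progenitors. Cacna1a was lower there (26.5 and 25.8 CPM in Bax null, 16 and 16.2, and 18.1 and 17.4 CPM elsewhere; log2 -0.70 and -0.56), the opposite of ganglion cells, but its direction in the double mutant turned without TMM (0.07). Kcnh2 was lower (log2 -0.43 and -0.34) and turned to 0.10 and 0.29 without TMM, the second of these called in the other direction (adjusted p 0.015). Kcnab1, Kcnb2, Kcnj9, Kcnmb2 and Kcnh2 were the 5 that lost their call in the double mutant without the shared barcodes, and Kcnip4 (adjusted p 0.0514) in the Atoh7 mutant. The summed progenitor markers were 6773, 8250 and 6764 CPM and blood genes 50.7, 567 and 90.1 CPM in the Atoh7 mutant, Bax null and the double mutant. Of 84 progenitor clusters, 52 had a larger share of the class in both Atoh7 null groups, and they held 82.1%, 21.4% and 79.7% of its cells in that order. The part of these differences in the changes of channel genes was not tested. Where the groups differed in Bax, 0 members were higher (against 0.0597% of all genes) and 0 lower (against 1.95%); 4 had an unadjusted p under 0.05, and DESeq2 called 0.

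In cones, the shallowest class tested, 26 channel genes could be tested. In the double mutant 4 were higher than in Bax null (15.4%, against 12.5% of all genes) and 2 lower (7.69%, against 15.6%), and in the Atoh7 mutant 2 were higher (7.69%, against 12.7%) and 2 lower (7.69%, against 14.8%). Without TMM the splits were 10 and 0, and 8 and 1. Kcnab1 was at least 2-fold above progenitors in cones in all 6 libraries. It was measured at 28.4 and 37.0 CPM in Bax null, 75.1 and 71.4 CPM in the Atoh7 mutant and 65.4 and 100.1 CPM in the double mutant (log2 1.17 and 1.31, adjusted p 0.000859 and 0.000246). Kcnd3 was lower in the same cells: 102 and 106 CPM in Bax null against 59.7 and 50.1, and 71.9 and 67.1 CPM (log2 -0.92 and -0.58, adjusted p 0.000282 and 0.01). The 2 cone genes thus differed in opposite directions, with no overlap between Bax null and the rest. Kcnk1 was again higher (9.80 and 1.12 CPM in Bax null, 20.4 to 30.4 CPM elsewhere, log2 1.84 and 2.26), and Kcnq1ot1 lower (log2 -0.78 and -0.69). The Bax null sums held 1294945 and 1142129 UMIs, so Kcnk1 rested there on few UMIs, and its replicates lay far apart. Kcnk3, an acid-sensitive leak channel (log2 1.75, adjusted p 0.0338), and Cacng4 (log2 1.18, adjusted p 0.0212, and 0.144 without the shared barcodes) were called only in the double mutant. Cone markers summed to 3610, 4567 and 3038 CPM and progenitor markers to 1120, 723 and 1158 CPM in the 3 groups. Where the groups differed in Bax, 0 were higher (against 0.0318% of all genes) and 0 lower (against 1.43%), with 1 at an unadjusted p under 0.05 and 0 called by DESeq2.

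Across the 4 classes, 44 channel genes were tested in at least 2, and 20 of these (45.5%, against 51.1% of all genes tested in at least 2) were called in at least 2 in the comparison of the double mutant with Bax null. Among the 20, 9 were higher wherever called (Cacna2d3, Kcna2, Kcnab3, Kcnb2, Kcnc1, Kcne1l, Kcnj9, Kcnk1 and Kcnk10) and 4 were lower wherever called (Cacna2d2, Cacng7, Kcnd3 and Kcnq1ot1). Kcnk1 and Kcnq1ot1 were called in all 4 classes. Another 7 were called in both directions (Cacna1a, Cacna1b, Cacng4, Kcnab1, Kcnh2, Kcnmb2 and Kcnmb4). The classes of a library share its depth and handling, so these counts are not separate replicates. Several of the opposed calls depended on the processing. Without TMM the progenitor values of Cacna1a, Kcnh2 and Kcnab1 and the ganglion and neurogenic cell values of Cacng4 turned sign. Without the shared barcodes Kcnmb2 lost its calls in ganglion cells and progenitors. Calls were also lost for Cacna1b in neurogenic cells, Kcnab1 and Kcnh2 in progenitors, and Cacng4 in cones.

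To set aside what all cells of a library share, ganglion cells were compared with progenitors of the same library, and that difference was tested between groups for 80 channel genes with the library as a block. In the double mutant against Bax null the difference was higher for 5 (6.25%, against 8.15% of all genes) and lower for 15 (18.8%, against 7.53%), and the median was -0.34 against 0.03 for all genes. In the Atoh7 mutant against Bax null it was higher for 5 (6.25%, against 7.4%) and lower for 10 (12.5%, against 7.81%). Where the groups differed in Bax, 0 were higher (against 0.102%) and 0 lower (against 0%), with 5 at an unadjusted p under 0.05. Sodium channel genes were among those lower: Scn3b by -2.55 (adjusted p 0.00671), Scn9a by -1.32 (adjusted p 0.0144) and Scn3a by -1.16 (adjusted p 0.00761) in the double mutant. Scn3b had 27 progenitor UMIs over all 6 libraries and was not tested in progenitors alone. In the Atoh7 mutant Scn9a (-1.96) and Scn2a1 (-1.29) were called, and Scn3b and Scn3a were not. In the double mutant Cacna1a had the smallest adjusted p of the channel genes (1.13 higher, SE 0.14, adjusted p 5.59e-08). Its ganglion cell level was higher and its progenitor level lower than in Bax null.

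Kcnk1 was also higher by this measure (1.28, SE 0.17, adjusted p 2.13e-07), its rise in ganglion cells exceeding that in progenitors. Cacna2d2 (-1.95), Kcnd3 (-2.02), Cacna1b (-1.38), Kcnmb4 (-0.90), Cacnb3 (-0.82) and Cacng4 (-0.60) were lower, and the direction of each was the same in both comparisons with Bax null where called. This result was sensitive to the shared cells: without them 10 of the 20 calls in the double mutant were kept, with Scn9a at -1.30 (adjusted p 0.0625) and Scn3a at -0.74 (adjusted p 0.302) among those lost, while 14 of 15 were kept in the Atoh7 mutant. Leaving out replicate 1 of the double mutant left 8 calls of 20, leaving out replicate 2 left 13, and leaving out replicate 2 of Bax null left 11.

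**Figure D4:**
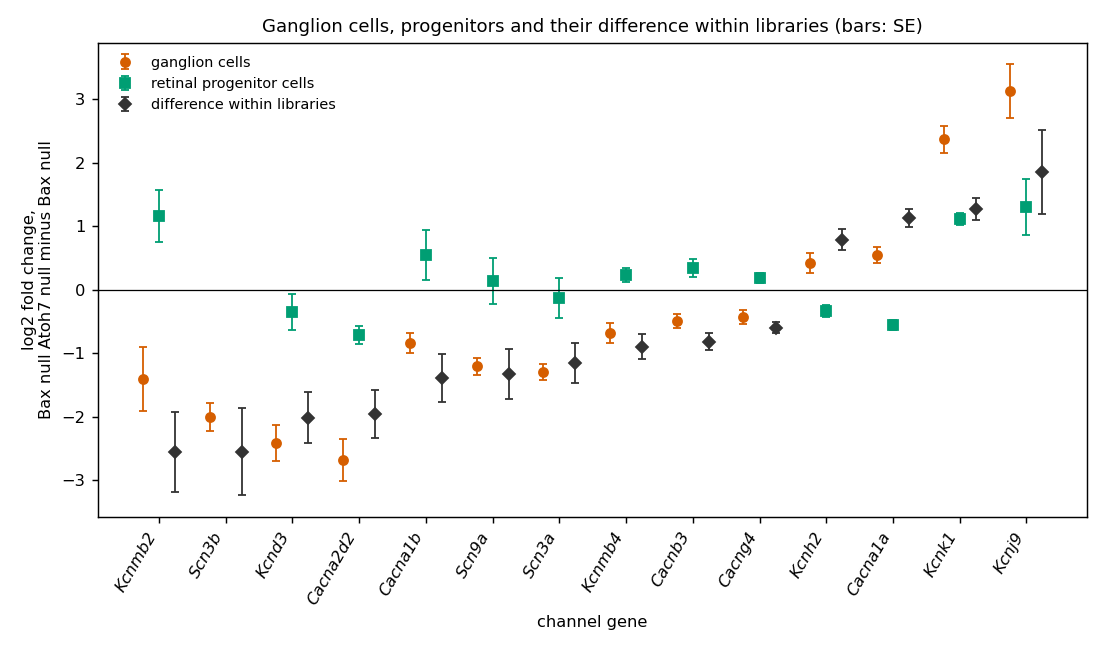
The vertical axis gives the log2 fold change of the double mutant minus Bax null with its SE in ganglion cells (circles), in retinal progenitor cells (squares, where tested) and for the difference between them within libraries (diamonds), for 14 channel genes. Cacna1a and Kcnh2 lie above 0 in ganglion cells and below 0 in progenitors, while Scn3a and Scn9a lie below -1 in ganglion cells and near 0 in progenitors.

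The authors divided the ganglion cells into 20 clusters. A set of 6 clusters held 84% of the ganglion cells of the Atoh7 mutant and 81.7% of those of the double mutant, but 9.45% of those of Bax null. Channel genes used for ordering, Cacng3, Kcnc1, Kcnd3 and others, are among those the clusters may rest on, so the values within clusters are descriptions. Levels were averaged with equal weight over the 5 clusters that had at least 25 cells in every library. Ratios of these means were taken with 0.5 CPM added. There Cacng3 had a log2 ratio of 4.57 between the double mutant and Bax null, Kcnc1 2.20, Kcnj9 2.11, Kcnk1 1.71 and Cacna1a 0.95. Kcnd3 had -1.25, Cacng2 -1.19 and Scn3a -0.85. In Bax null the mean of clusters rested on 2 and 1 UMIs for Cacng3 and on 4 and 0 UMIs for Kcnj9, so these ratios are loosely set.

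Other genes moved less or turned. Scn3b had a log2 ratio of -0.56 in the mean of clusters against -2.01 in the class, Cacna2d2 -0.72 against -2.68 and Cacna1b -0.03 against -0.84. Scn9a turned: in the mean of clusters it was measured at 13.0 and 12.6 CPM in Bax null, 19.7 and 18.3 CPM in the Atoh7 mutant and 23.2 and 16 CPM in the double mutant, a log2 ratio of 0.59 between the last and the first, against -1.21 for the class. Bax null was thus the lowest group for Scn9a in the mean of these clusters and the highest in the class as a whole. In the cluster numbered 9, with 40 and 36 Bax null UMIs, Bax null had 37.3 and the double mutant 37.2 CPM. Bax null lay lower in number 62 (21.7 against 38.4 CPM) and number 63 (3.09 against 22.4 CPM), on 5 and 3, and 0 and 2 UMIs. Scn9a was at 0 in number 90, and number 100 went the other way (2.07 against 0 CPM in the double mutant). The turn is therefore loosely set. Most Cacng3 UMIs of the ganglion cells of both Atoh7 null groups lay in a cluster led by Cacng3 itself with Csn3, Atf3, Hrk, Trib3 and Chac1, several of them genes of the stress response. That cluster held 11.1%, 2.21% and 17.5% of the ganglion cells of the Atoh7 mutant, Bax null and the double mutant. In the same order it held 58.9%, 20% and 74.3% of their Cacng3 UMIs, at 116.9, 4.27 and 184.5 CPM without TMM scaling. In Bax null these were 2 of 10 UMIs, and another cluster held 4 of the 10 (40%). Atf3 stood at 124.4, 6.41 and 258.8 CPM there.

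**Figure D5:**
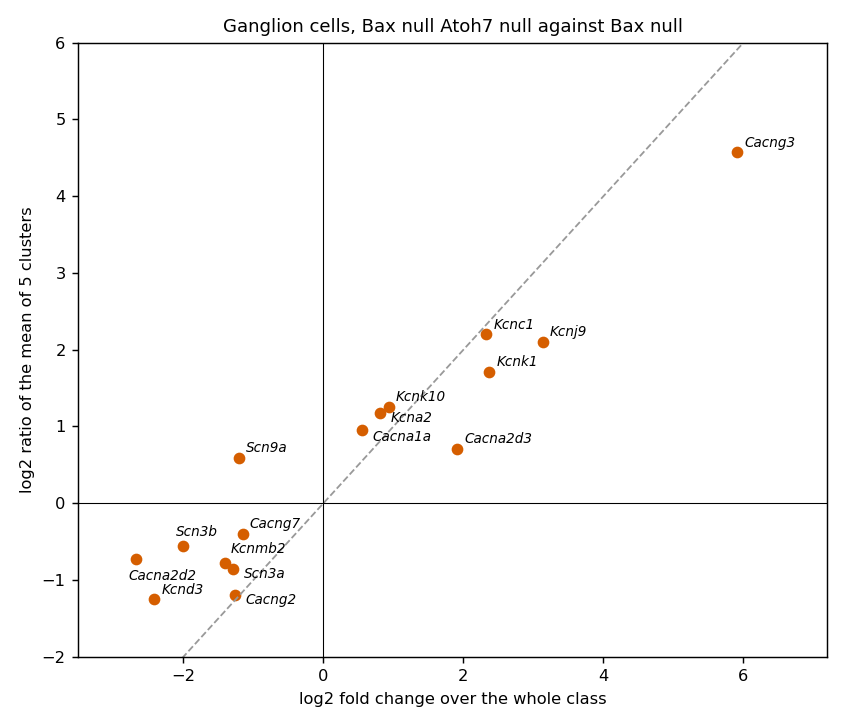
The horizontal axis gives the log2 fold change of the double mutant against Bax null over the whole ganglion cell class and the vertical axis the log2 ratio of the mean of 5 clusters for the same 16 genes, with the dashed line where both are equal. Kcnc1 and Cacng2 lie near the line, Scn3b, Cacna2d2 and Kcnd3 above it, Cacng3 below it, and Scn9a has the opposite sign (0.59 against -1.21).

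A list of 32 genes whose products bind or work with these channels was examined beside them. In ganglion cells 17 could be tested, with 5 higher and 5 lower in the double mutant than in Bax null (median log2 0.12; 26.2% and 26.5% of all genes were called higher and lower) and 5 higher and 4 lower in the Atoh7 mutant (25% of all genes each way). Dpp6, the auxiliary subunit of A-type channels, was higher (25 and 23.1 CPM in Bax null, 83.4 and 80.2, and 82.1 and 76.8 CPM elsewhere; log2 1.76 and 1.73, adjusted p 9.45e-08 and 8.24e-08), while the A-type channel gene Kcnd3 was lower. Gria2, an AMPA receptor subunit trafficked by TARPs, was higher (32.4 and 35.5 CPM in Bax null, 101 and 106 CPM, and 80.1 and 83.4 CPM elsewhere; log2 1.61 and 1.27), and Gria4, another subunit, was lower (log2 -0.95 and -0.77). Fgf12, which binds the tail of sodium channels, was lower (36.6 and 41.8 CPM in Bax null, 12.5 and 11.5, and 15.2 and 13.2 CPM elsewhere, with log2 -1.72 and -1.46, adjusted p 4.57e-06 and 7.79e-06). Fgf13, another Fgf gene of the list, went the other way and was called higher in both comparisons with Bax null. None of the 17 was called where the groups differed in Bax.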

How the data were processed

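The deposited matrix holds whole-number UMI counts per gene and cell, made by the authors with Cell Ranger 1.2.1 on mm10 per the submitters' processing notes; the per-cell sums equalled the totals in the authors' cell table for all 67050 cells. Counting strand and reference filters are not given in the sources used here, so antisense pairs (Kcnq1ot1 with Kcnq1, Kcnd3os with Kcnd3, Kcnmb4os2 with Kcnmb4, Kcnab3os with Kcnab3) may share reads. The authors' cell types and clusters were taken as deposited. The table holds 8 libraries; 26078 cells of 2 further libraries were not used here.

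Counts were summed per library and cell type (in ganglion cells, 1913889 to 10906998 UMIs) and tested with edgeR 4.0.16 (R 4.3.3; filterByExpr, TMM, quasi-likelihood F test over all 6 libraries) with Benjamini-Hochberg adjustment over all genes tested and a threshold of 0.05. The fits held 10586 genes in ganglion cells, 11670 in neurogenic cells, 13396 in progenitors, 9421 in cones and 13670 in the difference within libraries. The filter can keep a gene through 1 group alone, so members tested are not all members. An exact permutation test of 2 against 2 cannot go below 0.33. The scripts (Python 3.11.15) were tested on simulated data. The 2 Bax null Atoh7 null libraries shared barcodes, and no doublet caller was run.

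The alternatives were no filter, DESeq2 1.42.0, its size factors, thinned counts, only the 4 libraries compared, a replicate block, each library left out and the 3337 cells with the most UMIs left out; 3 more were chosen after seeing the data (shared barcodes left out, no TMM, clusters led by other markers left out). Named genes were Cacng3; the called members without overlap between groups and at least 5 CPM in the higher group, up to 8 per direction and comparison in ganglion cells and 4 elsewhere; the highest members of each type by level and by ratio to progenitors, and members at 20 CPM; and called partner genes. Others named were chosen after their values were seen. The members and lists were chosen with earlier results of these data known. Some genes and sequences are not reported here.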

Additional observations from a re-analysis of the deposited data

Results flagged for a closer look

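For the channel genes below, the difference between groups was not the same in ganglion cells and in retinal progenitor cells (adjusted p under 0.05). The test was of the difference itself, edgeR's class-by-group term with the library as a block. Against Bax null, genotype cannot be told apart from a batch. The mix of clusters also differed by group in both classes, and its part was not tested. Values are the log2 fold change in ganglion cells minus that in progenitors.

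In the double mutant against Bax null the difference was negative for the sodium channel genes Scn3b (-2.55, on 27 progenitor UMIs over all 6 libraries), Scn9a (-1.32) and Scn3a (-1.16). It was negative for the calcium channel genes Cacna2d2 (-1.95), Cacna1b (-1.38), Cacnb3 (-0.82) and the TARP gene Cacng4 (-0.60), and for the potassium channel genes Kcnmb2 (-2.56), Kcnd3 (-2.02) and Kcnmb4 (-0.90). It was positive for Kcnj9 (1.85), Kcnk1 (1.28), Cacna1a (1.13) and Kcnh2 (0.79). Without the barcodes shared by the double mutant libraries, and so with fewer cells, 4 of these were no longer called: Scn3a (adjusted p 0.302), Kcnmb2 (0.0789), Kcnj9 (0.0772) and Scn9a (0.0625).

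In the Atoh7 mutant against Bax null, which shares the Bax null libraries, the difference was negative for Scn9a (-1.96), Kcnd3 (-1.81), Cacna2d2 (-1.74), Scn2a1 (-1.29), Kcnmb4 (-0.78), Cacng4 (-0.72) and Cacnb3 (-0.61). It was positive for Cacna1a (1.35), Cacna1d (1.33), Kcnk1 (1.11), Kcnk2 (0.68) and Kcnh2 (0.60). For Kcnk2 and Kcnh2 the ganglion cell levels of the groups compared overlapped.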

How the results depend on the processing

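For 19 genes named for their fold change in ganglion cells, 3 comparisons gave 57 values. Of these 35 were called, and their 524 alternatives kept direction and call in 481 and lost the call in 43, with 0 reversed. In the double mutant minus Bax null, leaving out 1 library gave 22 to 30 calls in ganglion cells (27), 11 to 17 in neurogenic cells (16), 13 to 22 in progenitors (20), 4 to 7 in cones (6) and 8 to 18 in the difference within libraries (20), for which leaving out shared barcodes gave 10. Without TMM the counts in progenitors and cones were 37 and 10, and DESeq2 gave 3 in cones. In the Atoh7 mutant minus Bax null, leaving out 1 library gave 20 to 25 in ganglion cells (21), 12 to 17 in neurogenic cells (17), 13 to 25 in progenitors (20), 3 to 7 in cones (4) and 7 to 15 within libraries (15). Fitting the 4 libraries compared gave 32 in ganglion cells, and without TMM progenitors had 31 and cones 9. The count of 7 in cones was without Atoh7 mutant replicate 1, that of 7 within libraries without Atoh7 mutant replicate 2, and the counts of 13 in progenitors were without Bax null replicate 1 or, in the first comparison, either Bax null library. For the double mutant minus the Atoh7 mutant, the 1 call in ganglion cells (Cacng3) became 0 with no filter, DESeq2, the 4 libraries compared, high-UMI cells left out or shared barcodes left out, and 0 to 2 with 1 library left out; neurogenic cells and progenitors gave 0 to 1. The cause of these changes was not tested.

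Among those 57 values, reversals were of values not called. Other called values did turn without TMM: Cacnb3 and Cacng4 in ganglion cells, Cacng4 in neurogenic cells and Kcnh2, Kcnk2, Cacna1a and Kcnab1 in progenitors, to between 0.02 and 0.29; 1 was then called in the other direction (Kcnh2, double mutant minus Bax null). Without TMM, Scn2a1 in the double mutant minus Bax null became 0.32. The others were in the double mutant minus the Atoh7 mutant: without TMM Cacna1a 0.025, Cacna2d2 0.11 and Scn3a 0.0055, thinned Cacna1d 0.010, Cacna2d2 0.45 and Kcnk10 -0.16, and without shared barcodes Cacna1a 0.00064. Leaving out 1 library in turn, the ranges that crossed 0 were -0.074 to 0.46 for Cacna1b, -0.30 to 0.0089 for Cacna1d, -0.31 to 0.25 for Cacna2d2, -0.12 to 0.30 for Cacna2d3, -0.76 to 0.091 for Cacng7, -0.045 to 0.49 for Kcna2, -0.65 to 0.39 for Kcnd3, -0.089 to 0.51 for Kcnk10 and -1.65 to 0.44 for Kcnmb2.

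Replicate numbers were not shown to pair libraries (correlations of deviations 0.0494, 0.153 and 0.0218). With them as a replicate block, the counts were 27, 1 and 22 in ganglion cells (the double mutant minus Bax null, minus the Atoh7 mutant, and the Atoh7 mutant minus Bax null), 16, 0 and 16 in neurogenic cells, 20, 0 and 21 in progenitors and 7, 0 and 4 in cones.

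Depth limits cones most (890484 to 1384550 UMIs per library), and a gene at a few CPM rests there on a few UMIs.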
